A study of Mus musculus with 18 samples.

Results

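The genes described here are 10 enzymes and enzyme partners that make prostaglandins and leukotrienes, taken by name as a fixed list of symbols, with earlier results of these data known: Pla2g4a, Ptgs1, Ptgs2, Ptges, Ptgis, Ptgds, Tbxas1, Alox5, Alox5ap and Ltc4s. All 10 were found among the 30583 genes of the table by matching the table's Ensembl IDs to mouse symbols, and all 10 passed the filter on low counts. The RNA came from the hearts of 18 male C57BL/6JR mice aged 12 weeks, 1 library per mouse. In 15 mice the left anterior descending coronary artery was tied to cause a myocardial infarction, and hearts were taken from 3 mice at each of 5 times, the first after 10 min and the others after 1, 6, 24 and 72 h. The 3 sham mice, which serve as time 0, had the suture passed without tying. Every mouse was anaesthetised with sodium pentobarbital for the operation. The tie was not described as being released, and the tissue was the infarcted region of the left ventricle with no step that separated its cells. Gene positions below are those of GENCODE M21 on GRCm38 (mm10), and all 10 genes are protein-coding.

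Prostaglandins and leukotrienes are lipid signals made from arachidonic acid, which cytosolic phospholipase A2 (Pla2g4a) frees from membranes. The cyclooxygenases Ptgs1 and Ptgs2 turn it into prostaglandin H2, from which separate synthases make prostaglandin E2 (Ptges), prostacyclin (Ptgis), prostaglandin D2 (Ptgds) and thromboxane (Tbxas1). In the other branch 5-lipoxygenase (Alox5), with the membrane protein FLAP that presents arachidonic acid to it (Alox5ap), makes leukotriene A4, and Ltc4s joins that to glutathione to give leukotriene C4. In blood vessels prostacyclin relaxes the wall and holds platelets back, whereas thromboxane activates platelets. Leukotrienes are best known as products of white blood cells.

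The libraries held 18.2 to 25.1 M counts each. The labels name cardiomyocytes as the cell type, but markers of other cells were present in every group: in sham hearts 6 endothelial genes summed to 1156 to 1299 CPM (counts per M counts, where M is mega, scaled by TMM) and 6 fibroblast genes to 1952 to 2160 CPM. Gsn made up 1331 to 1543 CPM of the fibroblast sum, beside 400 to 426 CPM for Dcn and 38.1 to 41.9 CPM for Pdgfra. The libraries were therefore read as whole tissue. From sham to 72 h, 6 cardiomyocyte genes (Myh6, Tnnt2, Actc1, Tnni3, Ryr2 and Atp2a2) went from a median sum of 57660 to 16060 CPM. The summed level of 8 neutrophil genes lay between 5.38 and 7.62 CPM in sham, 19.7 and 29.5 CPM at 1 h, 275 and 947 CPM at 6 h, 109 and 995 CPM at 24 h and 72.6 and 87.2 CPM at 72 h. Of these 8 genes (S100a8, S100a9, Csf3r, Retnlg, Cxcr2, Mmp8, Mmp9 and Lcn2), Retnlg and Mmp8 had at least 1 sham library at 0. Lcn2 held 164 to 175 CPM of the sum at 6 h. At 72 h Csf3r held 22.5 to 29.2 CPM and Mmp9 14.1 to 23.0 CPM, and Retnlg alone overlapped its sham range. For 7 genes of recruited monocytes and macrophages the sum lay between 11.6 and 13.5 CPM in sham, 31.9 and 94.3 CPM at 6 h, 272 and 656 CPM at 24 h and 1735 and 2095 CPM at 72 h. These were Ccr2, Ly6c2, Chil3, Spp1, Gpnmb, Trem2 and Cd68, and Spp1 alone held 958 to 1201 CPM at 72 h. The sum of 6 resident macrophage genes was 73.8 to 89.2 CPM in sham and 218 to 245 CPM at 72 h. Of these, Mrc1, Cx3cr1 and Folr2 lay above sham at 72 h, Lyve1 and Timd4 below it, and Cd163 overlapped it. Replicate 1 at 6 h and replicate 3 at 24 h held the highest neutrophil sums, 947 and 995 CPM, and are given separately below where a result rests on them.

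Sequence upstream of the start site is shown for 3 members: the 2 cyclooxygenase genes, of which Ptgs2 changed far more than Ptgs1, and Alox5, which was lower at the times at which Alox5ap was higher. The 250 bases before each RefSeq start (assembly GRCm38.p6) are written 5′ to 3′ on the gene's strand, and capitals mark matches to the motifs searched. Position -1 is the last base before the start.
Ptgs2, chr1:150099781-150100030, plus strand: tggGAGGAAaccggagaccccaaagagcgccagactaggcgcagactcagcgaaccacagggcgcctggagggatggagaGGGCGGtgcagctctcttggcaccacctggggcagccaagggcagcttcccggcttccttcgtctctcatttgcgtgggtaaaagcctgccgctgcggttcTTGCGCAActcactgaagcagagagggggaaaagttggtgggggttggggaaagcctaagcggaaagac
Ptgs1, chr2:36230176-36230425, plus strand: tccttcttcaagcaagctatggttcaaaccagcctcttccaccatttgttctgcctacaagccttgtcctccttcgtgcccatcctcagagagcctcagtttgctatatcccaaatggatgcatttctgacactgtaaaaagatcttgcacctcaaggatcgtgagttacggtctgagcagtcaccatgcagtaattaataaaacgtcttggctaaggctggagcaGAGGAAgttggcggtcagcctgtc
Alox5, chr6:116461179-116461428, minus strand: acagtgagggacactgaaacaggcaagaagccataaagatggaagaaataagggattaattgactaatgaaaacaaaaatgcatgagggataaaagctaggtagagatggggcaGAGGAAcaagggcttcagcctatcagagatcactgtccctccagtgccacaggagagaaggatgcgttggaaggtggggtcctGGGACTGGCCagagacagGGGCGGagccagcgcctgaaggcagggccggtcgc
The 7 motifs, searched on both strands, were the NF-kB consensus (in 17.6% of 32851 RefSeq promoters of this length), the cyclic AMP response element (TGACGT, 6.47%), AP-1 (TGANTCA, 6.75%), C/EBP (TTNNGCAA, 9.56%), the TATA box (TATAAA, 12.4%), the GC box (GGGCGG, 32.7%) and the PU.1 core (GAGGAA, 23.3%). In Ptgs2 the C/EBP letters stood at -69 to -62, a GC box at -170 to -165 and the PU.1 core at -247 to -242. Ptgs1 held 1 match, the PU.1 core at -24 to -19. Alox5 held a match to the loose NF-kB pattern at -53 to -44, a GC box at -35 to -30 and the PU.1 core at -136 to -131. In these stretches none of the marked motifs overlapped another. These matches describe letters and were not tested as binding sites. Entries were found for 8 of the 10 members, with none for Alox5ap and Ptgis.

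Against sham, the 10 genes moved in number from 6 h on, and they did not move one way. At 10 min and at 1 h edgeR called 0 of 10 at an adjusted p under 0.05, where 0.0736% and 0.294% of the 16311 tested genes were called (0.0307% higher and 0.0429% lower at 10 min, 0.288% higher and 0.00613% lower at 1 h). Without adjustment, 1 member had p under 0.05 at 10 min (Ltc4s, lower) and 2 at 1 h (Ptgs2 and Ptgs1, higher). Of the 16311 tested genes, 1144 did at 10 min and 899 at 1 h. DESeq2 called 0 and 1 at these times and limma on log2(FPKM + 1) called 0 and 0, whereas limma on log2(FPKM + 0.1) called Ptgs2 at 1 h. At 6 h, 6 of 10 were called, beside 28.4% of all genes: Ptgs2, Alox5ap, Ptgis and Pla2g4a rose (16.3% of all genes rose) and Ltc4s and Alox5 fell (12.2% fell). At 24 h, 9 of 10 were called, beside 43.8%: the 4 that had risen at 6 h, with Tbxas1 and Ptges, were higher than sham, and Alox5, Ltc4s and Ptgs1 were lower (23.7% and 20.2% of all genes). Without replicate 3 of the 24 h group the count at 24 h was 6, since Ptges, Ptgs1 and Ltc4s were no longer called. At 72 h, 9 of 10 were called, beside 66.4%: 7 rose (34.2%) and Ptgds and Alox5 fell (32.2%), and Ltc4s alone was not called in this fit. The median log2 fold change of the 10 genes was 0.50 at 6 h, 0.99 at 24 h and 1.29 at 72 h, beside -0.01, 0.01 and 0.03 over all tested genes. An F test over the 6 groups called 10 of 10, beside 78.4% of all genes. In bulk tissue a change in the number of cells of a type cannot be told apart from a change in RNA per cell, which holds for every value given here.

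**Figure D1:**
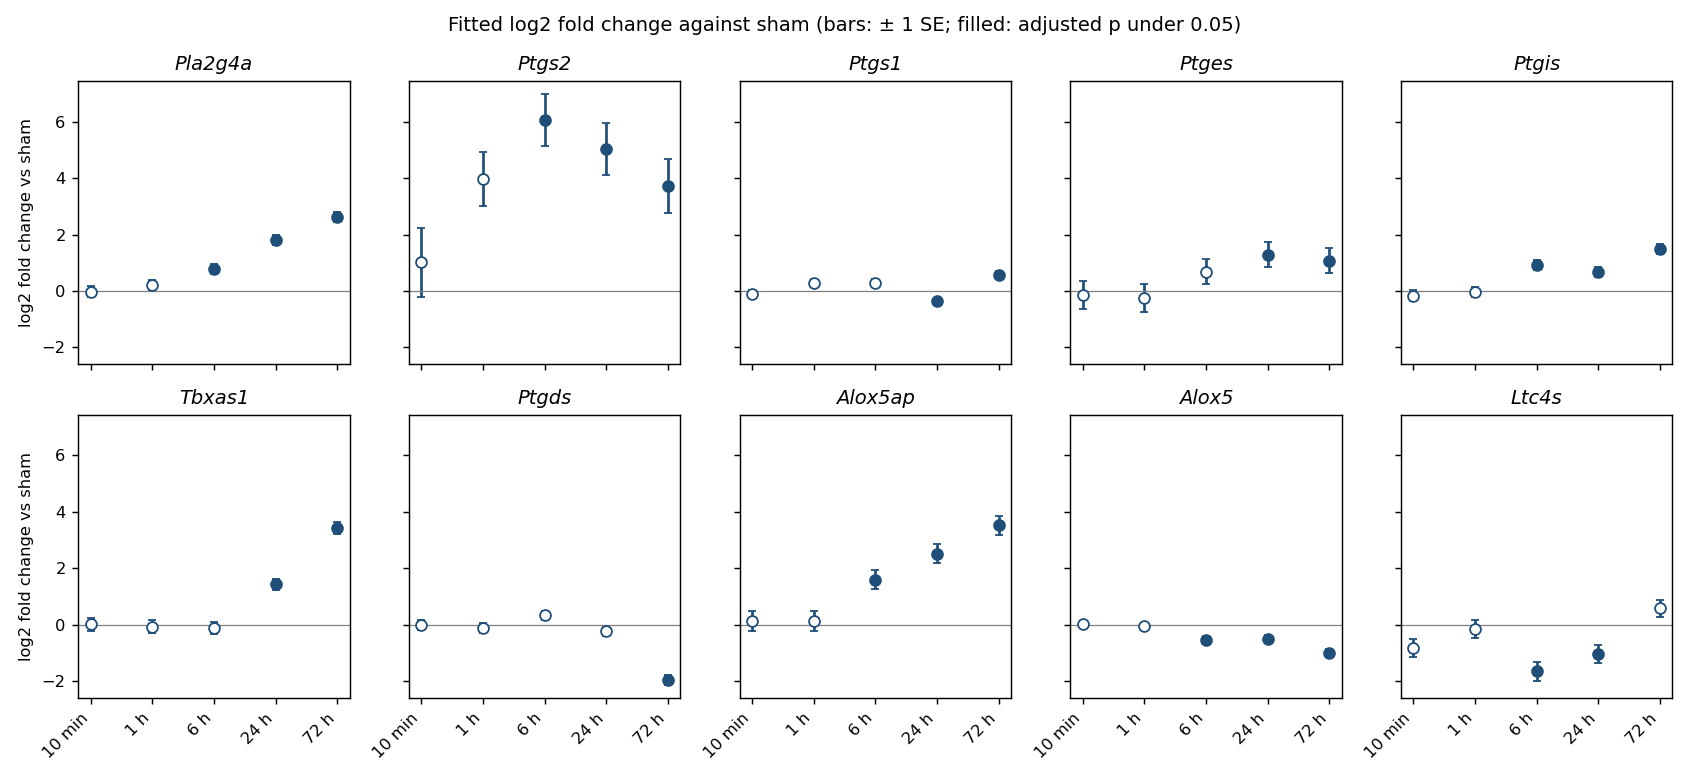
Log2 fold change against sham (y axis) at 10 min, 1, 6, 24 and 72 h (x axis) for each of the 10 genes, from the edgeR model over 18 libraries. Bars are 1 SE either way and filled points passed an adjusted p under 0.05. Ptgs2 peaks at 6 h at 6.06, Tbxas1 leaves 0 only at 24 h, and Ptgds and Alox5 end below 0.

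Between consecutive times, 0 of 10 members were called from 10 min to 1 h (0.307% of all genes, 0.251% higher and 0.0552% lower). DESeq2 called 1 and limma 0. At an unadjusted p under 0.05 there were 2 members, beside 1212 of the 16311 tested genes. From 1 h to 6 h 6 were called, beside 24.5%, 4 of them higher and 2 lower (14.5% and 10.0% of all genes), and 4 without replicate 1 at 6 h, when Ptgs2 and Pla2g4a were lost. From 6 h to 24 h 5 were called, beside 27.8%, 3 higher and 2 lower (14.2% and 13.7%). From 24 h to 72 h 8 were called, beside 50.5%, 6 higher and 2 lower (24.4% and 26.1%). From 6 h to 72 h 8 were called, beside 63.0%, 5 higher and 3 lower (31.3% and 31.6%). These comparisons share libraries with those against sham and with each other, so their counts are not separate evidence.

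**Figure D2:**
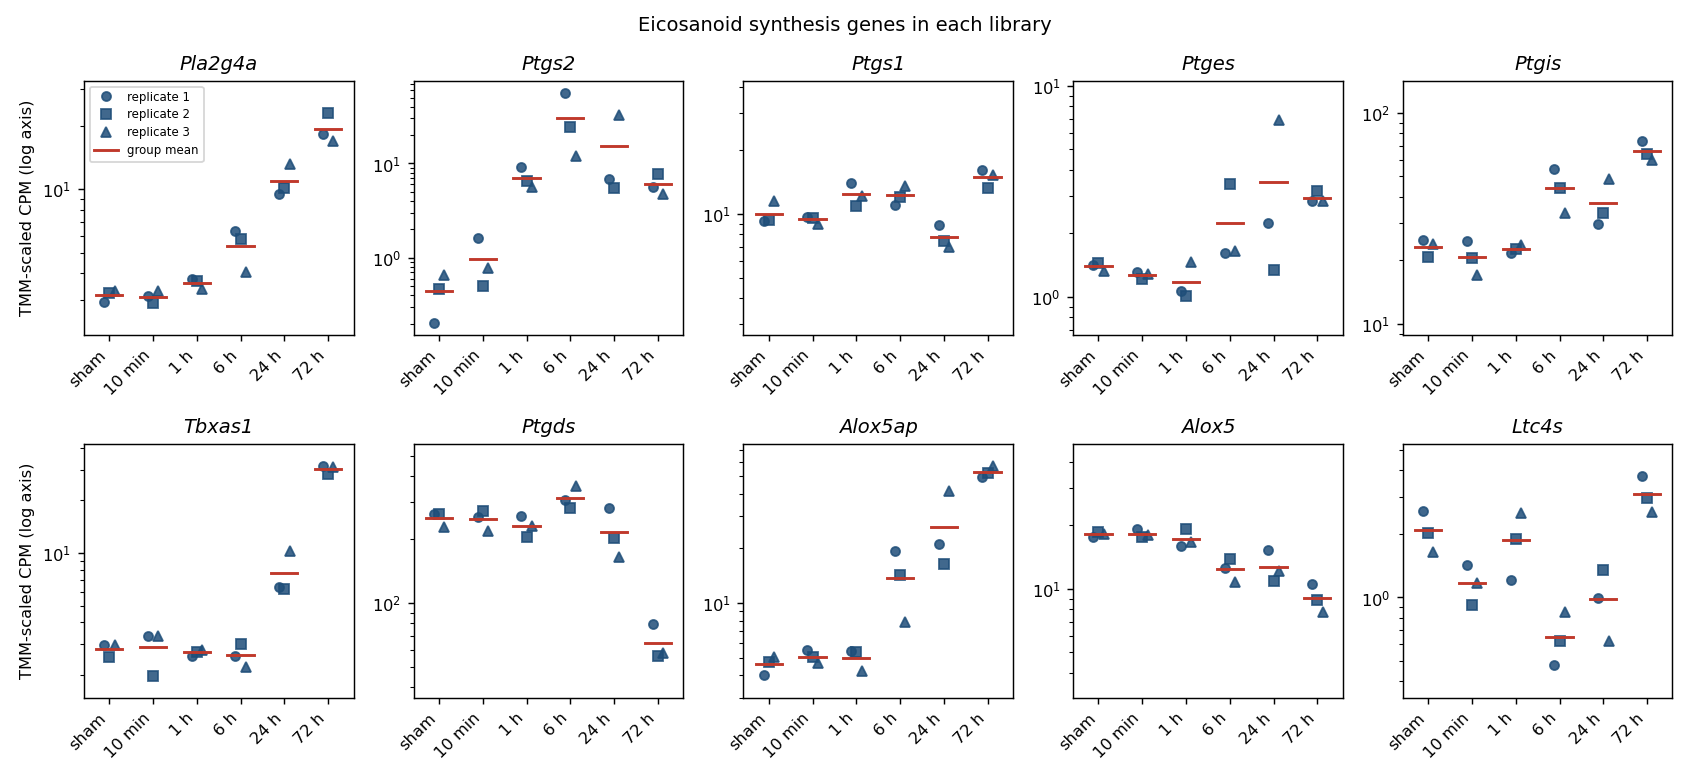
TMM-scaled CPM (y axis, log scale) of each gene in each of the 18 libraries, by group (x axis), with a symbol for each replicate number and a red line at the group mean. Replicate 1 at 6 h and replicate 3 at 24 h are the highest libraries for Ptgs2, at 56.1 and 33.0 CPM.

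Pla2g4a, the phospholipase that supplies arachidonic acid, was higher than sham from 6 h and higher still at each later time. In sham its levels were 2.93, 3.22 and 3.29 CPM. At 6 h they were 6.38, 5.84 and 4.05 CPM, at 24 h 9.50, 10.1 and 13.2 CPM, and at 72 h 18.3, 23.0 and 17.0 CPM. Each of these groups lay wholly above the one before, and the group at 1 h (3.38 to 3.77 CPM) lay just above sham without passing the test. The log2 fold changes against sham were 0.78 ± 0.18 (SE) at 6 h, 1.79 ± 0.18 at 24 h and 2.62 ± 0.18 at 72 h (edgeR adjusted p = 0.00383, 1.18e-06 and 7.13e-10, n = 3 per group). The call at 6 h was lost by limma on log2(FPKM + 1) (adjusted p = 0.08455). The gene (chromosome 1, 149829618 to 149961290, minus strand) lies 138.7 kb from Ptgs2 (150100031 to 150108227, plus strand), which had another time course.

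Ptgs2, the inducible cyclooxygenase, had the largest fold change of the 10 genes, at 6 h, and was already above sham in all 3 libraries at 1 h. Its raw counts in sham were 4, 9 and 15, or 0.202, 0.467 and 0.666 CPM. At 10 min it had 1.62, 0.504 and 0.782 CPM, which overlaps sham. At 1 h it had 9.23, 6.46 and 5.60 CPM (191, 109 and 96 counts), so that every 1 h library was above every sham and 10 min library. The log2 fold change at 1 h was 3.96 ± 0.96, yet the edgeR adjusted p was 0.204. DESeq2 gave 5.21e-05 for the same comparison and edgeR on the 6 libraries alone gave 5.99e-06. limma gave 0.0196 on log2(FPKM + 0.1) and 0.810 on log2(FPKM + 1), so this call depends on the model and the scale. Without replicate 3 at 24 h the 18-library fit also called it (edgeR adjusted p = 0.0325).

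At 6 h Ptgs2 had 56.1, 24.1 and 11.9 CPM, a log2 fold change of 6.06 ± 0.92 (edgeR adjusted p = 0.000409). Without replicate 1, the highest library, the fold change was 5.30, still called. Even its lowest 6 h library was above the highest 1 h library. At 24 h it had 6.91, 5.52 and 33.0 CPM, and 1 library stood far above the other 2. The log2 fold change at 24 h was 5.03 ± 0.93 (edgeR adjusted p = 0.000831) and 3.76 without that library, still called. At 72 h the levels were 5.68, 7.67 and 4.71 CPM, a log2 fold change against sham of 3.72 ± 0.95 (edgeR adjusted p = 0.00347). From 6 h to 72 h Ptgs2 fell by 2.34 ± 0.67 on the log2 scale (edgeR adjusted p = 0.00741), and by 1.59 without replicate 1 at 6 h (adjusted p = 0.0463). Where within that span the fall lay rested on single 24 h libraries. With all libraries neither the step from 6 h to 24 h (-1.03, adjusted p = 0.251) nor that from 24 h to 72 h (-1.31, adjusted p = 0.115) passed the test. Without replicate 3 at 24 h the earlier step was -2.30 and passed (adjusted p = 0.00982), with -0.05 left for the later one. Without replicate 2 at 24 h the later step was -1.72 and passed (adjusted p = 0.0414). Ordered by mean, 72 h, 1 h, 24 h and 6 h each overlapped their neighbour in that order. The 2 libraries with the most Ptgs2, replicate 1 at 6 h and replicate 3 at 24 h, were also those with the highest neutrophil sums. Each also held the highest recruited monocyte and platelet sums of its group. Their cardiomyocyte sums, 50540 CPM at 6 h and 24600 CPM at 24 h, were the lowest of their groups. The part of any cell type in the result was not tested.

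Ptgs1 (chromosome 2, 36230426 to 36252272, plus strand), the cyclooxygenase that many tissues make at all times, stayed within a narrow range. Its means were 10.1 ± 1.26 CPM (SD, n = 3) in sham, 12.4 ± 1.51 CPM at 1 h, 12.2 ± 1.34 CPM at 6 h, 7.76 ± 0.96 CPM at 24 h and 15.0 ± 1.51 CPM at 72 h. The 3 libraries at 24 h (8.85, 7.43 and 7.01 CPM) were below all sham libraries (9.25, 9.39 and 11.5 CPM), and those at 72 h (16.2, 13.3 and 15.4 CPM) were above them. The log2 fold change was -0.37 ± 0.14 at 24 h (edgeR adjusted p = 0.0335) and 0.57 ± 0.13 at 72 h (edgeR adjusted p = 0.000911). The call at 24 h was lost without replicate 3 of that group (adjusted p = 0.122), without replicate 2 (0.0930) and without sham replicate 3 (0.177), and when libraries were scaled by their totals alone (0.320). It was also lost with no low-count filter (adjusted p = 0.0853) and with the 6 libraries alone (0.0926). By limma the adjusted p was 0.336 on log2(FPKM + 1) and 0.313 on log2(FPKM + 0.1). From 24 h to 72 h Ptgs1 rose by 0.94 ± 0.13 (edgeR adjusted p = 1.18e-05).

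Set against each other per base of gene length, Ptgs2 was the minor cyclooxygenase transcript in sham, at 0.0185, 0.0422 and 0.0491 of the Ptgs1 level. At 1 h the ratio was 0.561, 0.50 and 0.390. At 6 h it was 4.34, 1.69 and 0.739, and at 24 h 0.662, 0.630 and 3.99, so Ptgs2 was above Ptgs1 in 2 libraries at 6 h and in 1 at 24 h. At 72 h it was back to 0.297, 0.490 and 0.260. The mean log2 ratio was above sham by 3.82 at 1 h, 5.70 at 6 h, 5.13 at 24 h and 3.31 at 72 h. In each of these 4 comparisons no library overlapped sham and the exact permutation test gave p = 0.1, which is the smallest it can give with 3 against 3, and 0.2 after adjustment over the 10 ratio tests made.

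**Figure D3:**
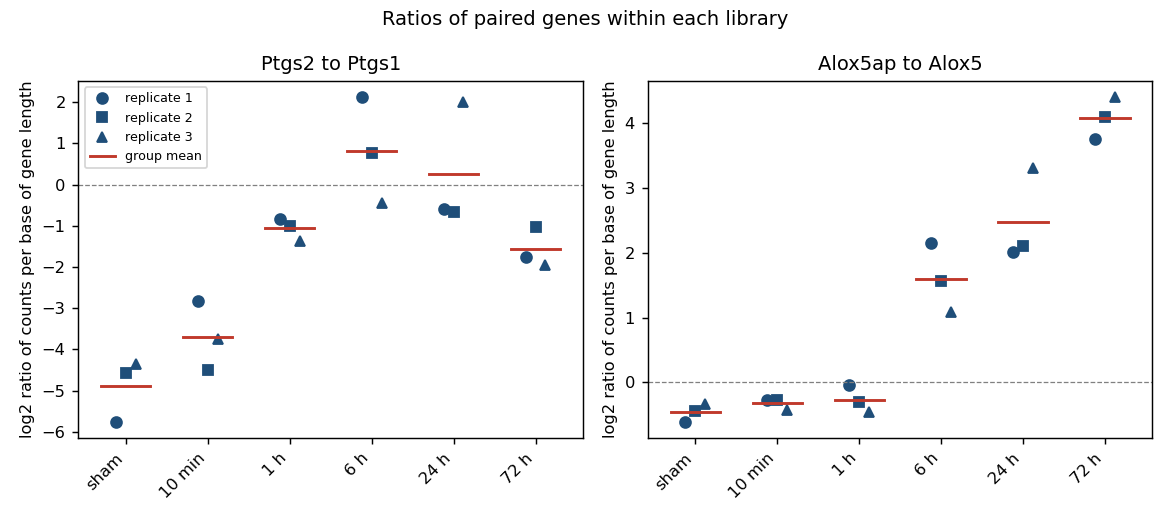
Log2 ratio of counts per base of gene length (y axis) in each of the 18 libraries by group (x axis), for Ptgs2 to Ptgs1 on the left and Alox5ap to Alox5 on the right, with group means in red and a dashed line at equal levels. The Ptgs2 to Ptgs1 ratio is highest at 6 h (mean 0.81) and lower again at 72 h (mean -1.57), whereas the Alox5ap to Alox5 ratio is highest at 72 h (mean 4.09).

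Among the synthases that act on prostaglandin H2, Ptgis (chromosome 2, 167191805 to 167240604, minus strand), the prostacyclin synthase, was raised from 6 h. Its levels were 25.1, 20.7 and 24.0 CPM in sham and 54.4, 44.3 and 33.6 CPM at 6 h. They were 29.9, 33.7 and 48.6 CPM at 24 h and 73.4, 64.2 and 59.8 CPM at 72 h. All libraries of these 3 times were above all sham libraries, and the 6 h and 24 h groups overlapped. The log2 fold changes were 0.92 ± 0.18, 0.68 ± 0.18 and 1.5 ± 0.18 (edgeR adjusted p = 0.00138, 0.00608 and 1.31e-06). Ptgis shares 156 exon bases with 1110018N20Rik on the other strand, which held 1591 counts over all libraries beside 15236 for Ptgis, and their reads cannot be told apart without strand.

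Tbxas1 (chromosome 6, 38875404 to 39084585, plus strand), the thromboxane synthase, differed little from sham up to 6 h and then rose. It had 2.98, 2.54 and 2.98 CPM in sham and 2.56, 3.01 and 2.24 CPM at 6 h, a log2 fold change of -0.12 ± 0.22 (edgeR adjusted p = 0.735). At 24 h it had 6.39, 6.23 and 10.3 CPM and at 72 h 31.6, 28.3 and 31.2 CPM. Both groups lay wholly above all earlier ones, with log2 fold changes of 1.42 ± 0.21 and 3.42 ± 0.21 (edgeR adjusted p = 4.53e-05 and 1.79e-10). The step from 24 h to 72 h was 2.0 ± 0.19, and that from 6 h to 24 h was 1.54 ± 0.21. The sum of the recruited monocyte and macrophage genes was highest in the same group, at 1735 to 2095 CPM, and that of 5 platelet genes was 140 to 154 CPM at 72 h beside 20.3 to 21.7 CPM in sham. Most of the platelet sum at 72 h was Pf4 (129 to 139 CPM, beside 14.2 to 17.2 CPM in sham). Ppbp (6.15 to 11.5 CPM, sham 0.489 to 1.30) and Itga2b (3.11 to 3.69 CPM, sham 1.96 to 2.44) also lay above sham. Gp9 overlapped its sham range, and Gp1ba was 0.477 to 0.726 CPM, below its sham range of 1.96 to 2.83 CPM. The part of these cells in the Tbxas1 result was not tested.

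Ptges (chromosome 2, 30889471 to 30929863, minus strand), the inducible prostaglandin E synthase, was a low transcript whose rise was less secure. It had 28, 28 and 30 counts in sham (1.42, 1.45 and 1.33 CPM). At 6 h it had 1.61, 3.45 and 1.65 CPM and was not called, with a fold change of 0.69 ± 0.46 on the log2 scale (edgeR adjusted p = 0.279). At 24 h it had 2.24, 1.34 and 6.91 CPM, and only replicate 3 stood far above sham. The log2 fold change at 24 h was 1.29 ± 0.44 (edgeR adjusted p = 0.0249), and without that library it was 0.35 (adjusted p = 0.433). Leaving out any 1 sham library also lost the call (adjusted p = 0.0598 to 0.0712). At 72 h the 3 libraries were close together at 2.84, 3.17 and 2.86 CPM, all above sham, with a log2 fold change of 1.08 ± 0.44 (edgeR adjusted p = 0.0380). That call was lost when any 1 of the 6 libraries was left out (adjusted p = 0.0599 to 0.0940), while the fold change stayed at 1.02 to 1.11. For the ratio of Ptges to Ptgis per length, the exact test cannot go under p = 0.1 with 3 against 3, so it cannot exclude a departure from sham. The difference in mean log2 ratio ran from -0.42 at 72 h (exact p = 0.1, the smallest possible) to 0.32 at 24 h (exact p = 0.7), with adjusted p between 0.2 and 0.8. At 72 h the ratios of 0.0253, 0.0322 and 0.0313 lay below every sham ratio (0.0369, 0.0457 and 0.0363).

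Ptgds (chromosome 2, 25466709 to 25470046, minus strand), the lipocalin-type prostaglandin D synthase, which also carries lipids, was by far the most abundant of the 10 in sham and fell at 72 h. It had 264.7, 264.5 and 228.9 CPM in sham, 306, 282 and 358 CPM at 6 h, and 282, 203 and 166 CPM at 24 h. At 72 h it had 79.5, 56.4 and 58.0 CPM, far below every other library. The log2 fold change was -1.97 ± 0.18 at 72 h (edgeR adjusted p = 2.29e-08) but 0.32 ± 0.17 at 6 h and -0.22 ± 0.17 at 24 h, which did not pass (adjusted p = 0.166 and 0.306). Hpgds, the other prostaglandin D synthase, known from mast cells and other cells of blood origin, went the other way at 72 h, from 1.52, 1.40 and 1.96 CPM in sham to 30.2, 26.8 and 32.3 CPM, a rise of 4.18 ± 0.30 on the log2 scale (edgeR adjusted p = 2.02e-09). At 6 h Hpgds had been below sham, at 0.596, 0.909 and 0.692 CPM (-1.13 ± 0.38, edgeR adjusted p = 0.0324). That call was lost without replicate 1 (adjusted p = 0.118) or 3 at 6 h (0.0831), and without replicate 1 (0.0600) or 3 of sham (0.117).

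In the leukotriene branch Alox5ap and Alox5, whose proteins work together, went in opposite directions. Alox5ap (chromosome 5, 149264767 to 149288153, plus strand) had 3.99, 4.72 and 5.02 CPM in sham and 19.3, 14.2 and 7.88 CPM at 6 h. It had 21.2, 16.3 and 41.5 CPM at 24 h and 49.6, 52.3 and 56.6 CPM at 72 h. Every library at 6 h or later was above every sham, 10 min and 1 h library. The log2 fold changes were 1.58 ± 0.33, 2.51 ± 0.33 and 3.53 ± 0.33 (edgeR adjusted p = 0.0027, 4.39e-05 and 2.20e-07). Replicate 1 at 6 h and replicate 3 at 24 h were the highest of their groups, as they were for the neutrophil and the monocyte sums. Without replicate 3 at 24 h the fold change at that time was 2.03, still called, but the step from 6 h to 24 h went from 0.93 (edgeR adjusted p = 0.0325) to 0.45 (0.177).

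Alox5 (chromosome 6, 116410077 to 116461178, minus strand) had 17.6, 18.6 and 18.2 CPM in sham. It had 12.5, 13.9 and 10.8 CPM at 6 h, 15.2, 10.9 and 12.1 CPM at 24 h and 10.5, 8.86 and 7.73 CPM at 72 h. Every library of these 3 times was below every sham library. The log2 fold changes were -0.55 ± 0.14, -0.51 ± 0.14 and -1.0 ± 0.14 (edgeR adjusted p = 0.00638, 0.0057 and 3.52e-06). With libraries scaled by their totals alone, which shifts the median of all genes by 0.61 at 72 h, the fold change at 72 h was -0.42 (adjusted p = 0.0074) and the one at 24 h was no longer called (adjusted p = 0.0512). The further fall from 6 h to 72 h, -0.46 ± 0.14 in the main fit (edgeR adjusted p = 0.00777), turned to 0.23 under that scaling, so its direction depends on the scaling. The step from 24 h to 72 h, -0.49 in the main fit, was -0.10 under that scaling and not called (adjusted p = 0.555). The ratio of Alox5ap to Alox5 per length, a description chosen after the values were seen, was 0.656, 0.735 and 0.797 in sham. It was 4.45, 2.95 and 2.12 at 6 h, 4.02, 4.33 and 9.91 at 24 h, and 13.6, 17.1 and 21.2 at 72 h.

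Ltc4s (chromosome 11, 50236461 to 50238616, minus strand), the leukotriene C4 synthase, was low at 6 h and 24 h and, at 72 h, at or above the sham levels. It was scarce, with 51, 39 and 37 counts in sham (2.58, 2.02 and 1.64 CPM). At 10 min it had 1.43, 0.924 and 1.17 CPM, below all sham libraries, but the test did not pass (log2 fold change -0.83 ± 0.32, edgeR adjusted p = 0.602), and at 1 h it overlapped sham again at 1.21, 1.90 and 2.51 CPM. At 6 h it had 0.477, 0.622 and 0.852 CPM (8, 13 and 16 counts), a log2 fold change of -1.66 ± 0.35 (edgeR adjusted p = 0.00182). At 24 h it had 0.993, 1.34 and 0.619 CPM, -1.04 ± 0.32 (edgeR adjusted p = 0.0132). That call was lost without replicate 3 at 24 h (adjusted p = 0.0656) or without sham replicate 1 (0.0687). At 72 h Ltc4s had 3.75, 2.95 and 2.55 CPM, and 2 of these libraries lay above every sham library. The log2 fold change against sham was 0.57 and did not pass (edgeR adjusted p = 0.0923). It passed in 4 of 9 other analyses: with library totals (1.15, adjusted p = 0.00157), with the 6 libraries alone (0.58, 0.0321) and by limma on log2(FPKM + 1) (0.85, 0.000283) and on log2(FPKM + 0.1) (1.12, 0.00209). These levels followed a rise of 1.61 ± 0.31 from 24 h (edgeR adjusted p = 0.000261) and of 2.23 ± 0.34 from 6 h (1.23e-05).

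Ltc4s shares 268 exon bases with Gm26542, annotated on the other strand, whose 78 counts over all libraries stand beside 699 for Ltc4s. Without strand, their reads cannot be told apart. Mast cells are a known source of leukotriene C4. Of 8 mast cell genes, Fcer1a and Ms4a2 were at 0 in all sham libraries and never above 0.179 CPM, and Cpa3, Mcpt4, Tpsb2 and Cma1 did not exceed 1.29 CPM in any library. The summed level of the 8 was 10.3 to 12.9 CPM in sham, 25.7 to 77.0 CPM at 6 h, 16.2 to 58.5 CPM at 24 h and 14.9 to 19.6 CPM at 72 h. Hdc made up 12.2 to 60.0 CPM of it at 6 h and 2.37 to 31.9 CPM at 24 h. Kit held 5.78 to 10.0 CPM in sham, 7.23 to 14.1 CPM at 6 h and 11.6 to 25.7 CPM at 24 h.

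Compared per kilobase of exon, the 10 transcripts changed in makeup as well as in level. Ptgds had the highest mean in every group, with 87.2% of the summed level in sham (153 ± 12.5 CPM per kb, SD, n = 3), 82.0% at 6 h, 74.1% at 24 h and 32.8% at 72 h. Alox5ap made up 1.83% in sham, 4.16% at 6 h, 10.5% at 24 h and 31.1% at 72 h, where its 37.2 ± 2.50 CPM per kb lay beside 39.2 ± 7.81 for Ptgds. In that group Alox5ap was above Ptgds in 2 of 3 libraries, and without replicate 1 it ranked first, at 38.4 beside 34.7 CPM per kb. Ptgis went from 5.16% to 21.4%. Ptgs2 was last of the 10 in sham (0.0972 ± 0.0508 CPM per kb), 7th at 1 h, 4th at 6 h and 24 h, and 9th at 72 h. Its rank at 24 h rested on replicate 3, without which it was 7th at 1.36 CPM per kb. Alox5 went from 3rd in sham to 8th at 72 h. Tbxas1 went from 9th in sham and 10th at 6 h to 5th at 72 h, at 3.34 ± 0.20 CPM per kb (6th without replicate 3).

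**Figure D4:**
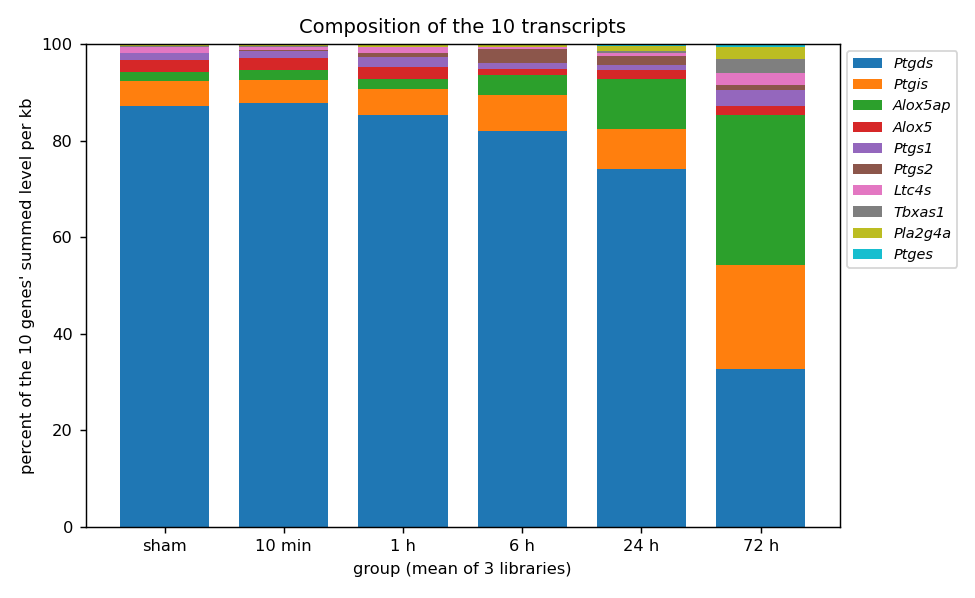
Share of each gene in the summed level per kb of the 10 genes (y axis, percent) in each group (x axis, mean of 3 libraries). Ptgds fills 87.2% of the sham bar and 32.8% of the 72 h bar, where Alox5ap takes 31.1% and Ptgis 21.4%.

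For 9 members the genes with the most similar course over the 18 libraries were looked up among those with a mean of at least 50 counts (11701 or 11702 genes), by the root mean square (RMS) difference of centred log2 CPM. A smaller RMS difference means a closer course. For Ptgs2 they were Socs3, a feedback inhibitor of cytokine signalling (RMS difference 0.53 beside a spread of 2.1 in Ptgs2 itself), and the chemokines Cxcl1 (0.82) and Ccl3 (0.85). Alox5ap was closest to Fcgr3, an Fc receptor of myeloid cells (0.19 beside 1.37), and Nfam1 (0.19). For Tbxas1 they were Myof, Epsti1 and Rab7b (0.22, 0.22 and 0.25 beside 1.3). Ptgds was closest to Lpl, the lipoprotein lipase (0.16 beside 0.78), Mypn, a sarcomere protein, and Got1, an aspartate aminotransferase (both 0.18). Alox5 was closest to Amigo1 (0.10 beside 0.40), Eml1 and Kif16b. Ltc4s was closest to Tril, Dact3 and Tbxa2r, the thromboxane receptor (0.34 to 0.39 beside 0.77). Pla2g4a was closest to G6pdx, glucose-6-phosphate dehydrogenase (0.19 beside 0.99), Ptgis to Shisa5 (0.19 beside 0.63) and Ptges to Eno1, a glycolytic enolase (0.34 beside 0.68). Ptgs1 had no fold change of at least 1 on the log2 scale against sham and was not looked up.

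The rest of the pathway was counted from 6 lists of 59 genes by role, of which 44 passed the filter on low counts. Called higher and lower than sham were 0 and 0 of 44 at 10 min (edgeR), 1 and 0 at 1 h, 9 and 3 at 6 h, 11 and 14 at 24 h and 17 and 19 at 72 h. Over all tested genes, 16.3% were higher and 12.2% lower at 6 h, 23.7% and 20.2% at 24 h and 34.2% and 32.2% at 72 h. The single gene at 1 h was Ptger4. The later counts include genes that passed the low-count filter only through their later libraries, as given below.

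Among 12 tested phospholipases and related lipases, 3 rose and 7 fell at 72 h, where 34.2% of all genes rose and 32.2% fell. Their median log2 fold change was -1.41, beside 0.03 over all genes. Pla2g7, which breaks down platelet-activating factor, went from 2.58, 3.48 and 4.75 CPM in sham to 44.4, 47.7 and 60.5 CPM at 72 h (3.81 ± 0.40, edgeR adjusted p = 6.70e-07). Pla2g4e, another cytosolic phospholipase A2, fell by 1.95 ± 0.23 (edgeR adjusted p = 5.48e-07) and Pla2g2d had its lowest levels at 24 h (-2.67 ± 0.50, edgeR adjusted p = 0.000396, from 17 to 25 counts in sham to 2 to 6). Pla2g2e, called at 72 h, had 1, 0 and 2 counts in sham, at most 5 in any library of the other groups, and 20, 11 and 19 at 72 h. It passed the low-count filter only through its 72 h libraries, so its call there, 1 of the 3 rises, is not separate from the filter.

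Of the 6 other prostaglandin synthases, Hpgds alone rose at 72 h and 4 fell (34.2% and 32.2% of all genes). Ptges2, a membrane-associated prostaglandin E synthase, went from 59.3, 62.0 and 62.9 CPM in sham to 29.7, 25.8 and 27.5 CPM at 72 h (-1.15 ± 0.12, edgeR adjusted p = 8.87e-08), in the group in which Ptges was above sham. Ptges3, a cochaperone that also acts as a prostaglandin E synthase, was called at 24 h (0.36 ± 0.11, edgeR adjusted p = 0.0102), but not without replicate 3 of that group (adjusted p = 0.0740).

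Among 9 tested enzymes of leukotriene and lipoxygenase metabolism, 4 rose and 4 fell at 72 h (34.2% and 32.2% of all genes). Mgst3, a microsomal glutathione transferase, fell from 221.4, 223.6 and 189.5 CPM in sham to 72.9, 52.8 and 53.0 CPM (-1.83 ± 0.17, edgeR adjusted p = 5.61e-08), and the lipoxygenase Alox12 fell by 1.3 ± 0.28 (0.000513). Alox15, the 12/15-lipoxygenase, had 3, 0 and 0 counts in sham, 31 in 1 library at 1 h beside 3 and 2 in the others, and 51, 45 and 29 at 72 h. Alox15 passed the low-count filter only with its 72 h libraries, so its rise there is not separate from the filter. Aloxe3 had 1, 0 and 1 counts in sham, 22, 3 and 11 at 6 h and 6, 6 and 34 at 24 h. It was called at both times, which are also the times whose libraries let it pass the low-count filter. The call at 6 h was lost without replicate 1 or any 1 sham library, and that at 24 h without replicate 3.

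Of 4 tested receptors for leukotrienes and lipoxins, 2 rose at 6 h, and 3 at 24 h and 72 h, and 0 fell at any time. Of all genes, 16.3%, 23.7% and 34.2% rose at these times. Ltb4r1, the high-affinity leukotriene B4 receptor, had 4, 1 and 5 counts in sham, 114, 51 and 37 at 6 h, and 155, 76 and 419 at 24 h, at which time its difference from sham was 5.93 ± 0.89 (edgeR adjusted p = 0.000138). Fpr2, a receptor for lipoxin A4 and formyl peptides, had 3, 2 and 4 counts in sham and 56, 21 and 289 at 24 h (5.29 ± 1.14, edgeR adjusted p = 0.00199). For both genes replicate 1 at 6 h and replicate 3 at 24 h were again the highest of their groups. Without replicate 3 the differences at 24 h were 4.80 for Ltb4r1 and 3.36 for Fpr2, both still called. With sham counts this low, the size of these differences is uncertain. Both genes passed the low-count filter only through libraries at 6 h or later. Their rises, which are the 2 counted at 6 h and 2 of the 3 at 24 h and 72 h, are therefore not separate from the filter. Neutrophils are known to carry both receptors.

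Of 6 tested prostanoid receptors, 2 were higher and 1 lower at 6 h, and 3 higher and 1 lower at 72 h (16.3% and 12.2% of all genes at 6 h, 34.2% and 32.2% at 72 h). Ptger4, the EP4 receptor for prostaglandin E2, rose from 5.46, 5.19 and 5.02 CPM in sham to 10.5, 8.23 and 10.3 CPM already at 1 h (0.89 ± 0.18, edgeR adjusted p = 0.0333) and stayed above sham at each later time. Ptger2, the EP2 receptor, was higher at 72 h (3.96 ± 0.56, edgeR adjusted p = 5.92e-06), with 6, 2 and 6 counts in sham and 95, 109 and 142 at 72 h. Its sham counts are low, so the size of that rise is uncertain. Ptger2 passed the low-count filter only through libraries at 6 h or later, so its calls there are not separate from the filter. The Ptger2 call at 6 h was lost without replicate 1 (adjusted p = 0.335) or any 1 sham library (0.0694 to 0.136). Tbxa2r, the thromboxane receptor, fell at 6 h from 5.06, 5.08 and 4.53 CPM to 1.49, 1.72 and 1.70 CPM (-1.57 ± 0.32, edgeR adjusted p = 0.0016). At 72 h, when Tbxas1 was highest, Tbxa2r had 5.49, 5.15 and 6.11 CPM and did not pass the test (0.19 ± 0.29). It was called higher there with library totals (0.78, adjusted p = 0.0283) and by limma on log2(FPKM + 1) (0.59, 0.0145) and log2(FPKM + 0.1) (0.75, 0.0353). Ptgfr was lower at 24 h (-0.98 ± 0.34, edgeR adjusted p = 0.0254), but not without replicate 3 (adjusted p = 0.0892), replicate 2 (0.0541) or sham replicate 3 (0.0781).

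Of 7 genes for transport and breakdown of prostaglandins, Slco2a1, the prostaglandin transporter, rose first, from 4.75, 4.20 and 5.11 CPM in sham to 19.2, 14.4 and 12.7 CPM at 6 h (1.71 ± 0.20, edgeR adjusted p = 1.55e-05). At 72 h, 3 rose and 3 fell (34.2% and 32.2% of all genes). Ptgr1 and Ptgr2, prostaglandin reductases, parted: Ptgr1 rose by 3.11 ± 0.22 (edgeR adjusted p = 1.47e-09), from 2.98 to 3.51 CPM to 24.8 to 32.5 CPM, whereas Ptgr2 fell by 1.13 ± 0.18 (3.64e-05) and Zadh2, another such reductase, by 1.08 ± 0.11 (6.73e-08).

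**Figure D5:**
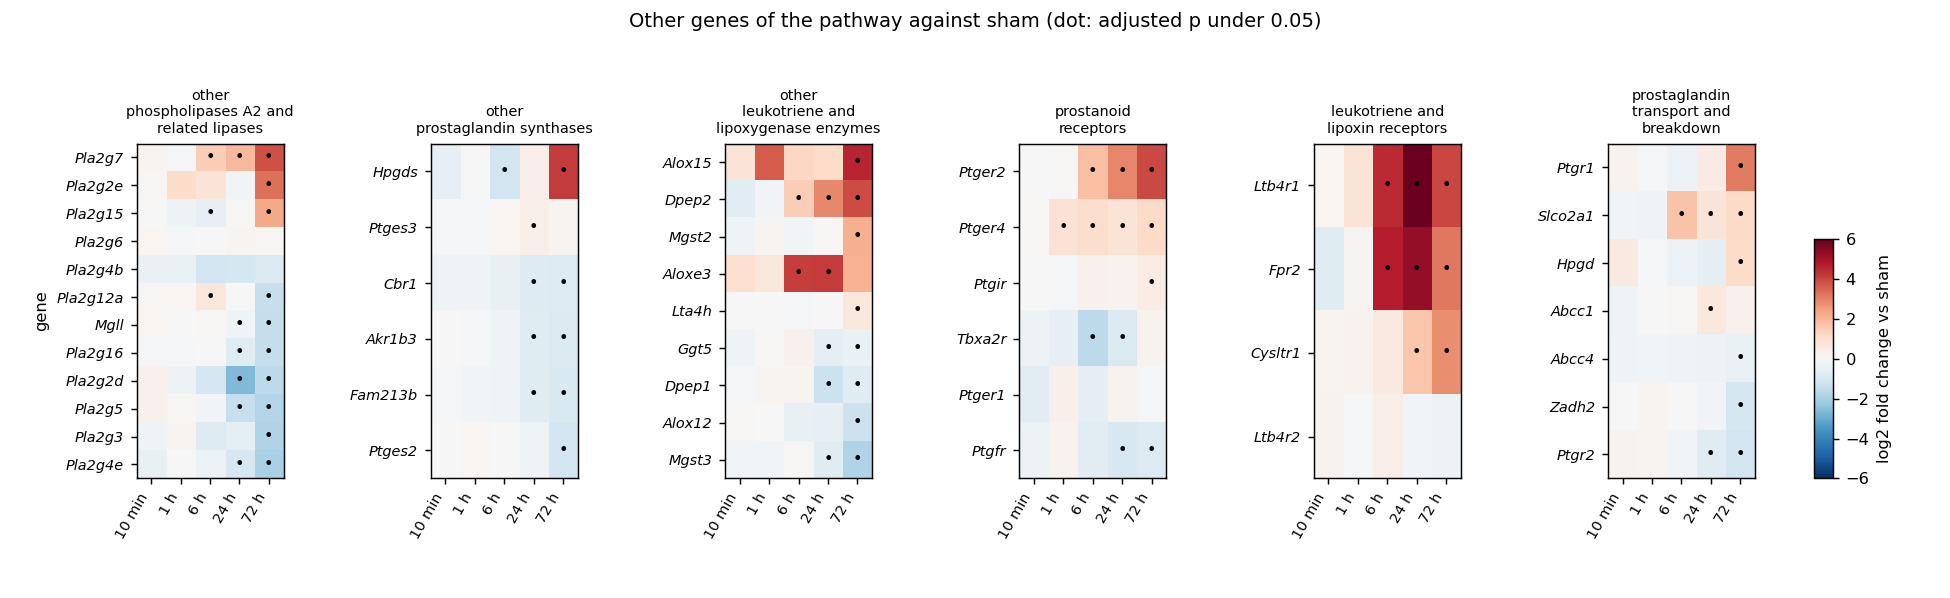
Log2 fold change against sham (colour, -6 to 6) of the 44 tested genes of the 6 role lists (rows) at 10 min, 1, 6, 24 and 72 h (columns), with a dot where the edgeR adjusted p was under 0.05. Dots are few before 6 h. Colours of Pla2g2e, Alox15 and Aloxe3 rest on sham counts of 3 or fewer and do not measure a fold. Those of Ltb4r1, Fpr2 and Ptger2 rest on sham counts of 1 to 6, so their size is uncertain.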

How the data were processed

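RNA from 18 mouse hearts was sequenced. Per the labels' protocols, mRNA was taken with oligo(dT) beads and copied from random hexamers. Per the submitters' processing notes, cutadapt 1.18, HISAT2 2.1.0 and featureCounts were used with mm10. The annotation and the strand setting are not given in the sources used here. The authors deposited raw read counts per Ensembl gene and FPKM. The deposited FPKM imply gene lengths equal to the GENCODE M21 (GRCm38) exon length for 91.8% of genes and all 10 members, so M21 gave symbols, coordinates and overlaps. The FPKM columns for 6 h replicate 2 and 6 h replicate 3 hold each other's counts. Which table is mislabelled is not known, so replicate numbers are those of the count table. Group comparisons do not depend on it, whereas the names of 6 h libraries left out and the replicate block do. Without molecular identifiers, reads are not all independent molecules.

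Counts were fitted with edgeR 4.0.16 (R 4.3.3): filterByExpr left 16311 genes and removed 14272, TMM scaling, a robust quasi-likelihood fit with 1 mean per group over 18 libraries, two-sided tests, Benjamini-Hochberg adjustment over all tested genes, threshold 0.05. The biological coefficient of variation was 0.149, and the code was tested on simulated counts. Levels are TMM-scaled CPM. Isozyme ratios were tested by exact permutation, two-sided. Alternatives were DESeq2 1.42.0, limma 3.58.1 on log2(FPKM + 1) and log2(FPKM + 0.1), other scalings and filters, the 6 libraries alone, a replicate block and leaving out each library. Leaving out libraries for the ratios and for the ranks by level was chosen after seeing the data.

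All 10 members were named, with, per role list and direction, the called genes of largest change at 6, 24 or 72 h (at most 2 each way). Up to 3 of the most similar genes were named for members with a log2 fold change of at least 1; a further gene is not reported here. Members and lists were chosen with earlier results of these data known. Each group's 3 mice are separate animals per the labels. Promoter sequences come from RefSeq (GRCm38.p6).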

Additional observations from a re-analysis of the deposited data

Results flagged for a closer look

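Every member that changed between 2 consecutive times is given here for a closer look, as the change in log2 level tested in the 18-library edgeR model (adjusted p under 0.05). From 1 h to 6 h, Ptgs2 changed by 2.1, Alox5ap by 1.46, Ptgis by 0.96 and Pla2g4a by 0.58, while Alox5 changed by -0.48 and Ltc4s by -1.50. From 6 h to 24 h, Tbxas1 changed by 1.54, Pla2g4a by 1.01 and Alox5ap by 0.93, while Ptgs1 changed by -0.66 and Ptgds by -0.54. From 24 h to 72 h, Tbxas1 changed by 2.0, Ltc4s by 1.61, Alox5ap by 1.01, Ptgs1 by 0.94, Pla2g4a by 0.83 and Ptgis by 0.82, while Ptgds changed by -1.75 and Alox5 by -0.49. Ptgs1 and Ltc4s thus each changed in both directions: Ptgs1 was lowest at 24 h between 2 higher times, and Ltc4s was lowest at 6 h. With all libraries Ptges passed the test in no consecutive step and Ptgs2 in none after 6 h. Without replicate 3 at 24 h, Ptges passed from 1 h to 6 h (0.94, adjusted p = 0.0236), Ptgs2 fell from 6 h to 24 h (-2.30, 0.00982) and so did Ptgis (-0.47, 0.0477). Without replicate 2 at 24 h, Ptgs2 fell from 24 h to 72 h (-1.72, 0.0414).

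Several of these steps were not called under other settings. With library totals, the calls were lost for Ptgs1 (-0.36, adjusted p = 0.0539) and Ptgds (-0.25, 0.191) from 6 h to 24 h, Alox5 from 24 h to 72 h (-0.10, 0.555) and Pla2g4a from 1 h to 6 h (0.50, 0.0598). By limma on log2(FPKM + 1) the same 4 were lost, at -0.25, -0.27, -0.08 and 0.19. The 6 libraries alone lost these 4 together with Ptgs2 from 1 h to 6 h and Alox5ap from 6 h to 24 h. Leaving out 1 library lost Ptgs2 and Pla2g4a from 1 h to 6 h in 5 of 18 fits each, Ptgds and Alox5ap from 6 h to 24 h in 3 each, Alox5 from 1 h to 6 h in 2, and Alox5 and Alox5ap from 24 h to 72 h in 1 each, both without replicate 1 at 24 h. For Ptgds these were replicate 3 at 6 h and replicates 2 and 3 at 24 h (adjusted p = 0.0805 to 0.101).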

How the results depend on the processing

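The 10 members gave 100 comparisons and 2698 values under the alternatives, of which 2589 kept direction and side of the threshold, 68 lost a call, 38 gained one and 3 reversed. The 3 were Alox5 from 6 h to 72 h (-0.46): 0.23 with library totals only, 0.17 by limma on log2(FPKM + 1) and 0.23 on log2(FPKM + 0.1), none called, and both FPKM scales are themselves scaled by library totals. Library totals move the median of all genes by -0.12, 0.20 and 0.61 at 6, 24 and 72 h, and the percentage of calls that are increases from 57.2%, 54.0% and 51.4% to 40.6%, 75.5% and 79.9%.

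Counts over all genes moved most where few were called. At 10 min against sham (12) they were 26 with no filter, 360 with the 6 libraries alone, 60 by DESeq2, 2 by limma and 0 to 24 leaving out 1 library. With 6 libraries, by DESeq2 and leaving 1 out, they were 190, 95 and 31 to 68 at 1 h (48) and 244, 133 and 6 to 87 from 10 min to 1 h (50). From 6 h to 24 h (4541) they were 6880 with library totals and 1024 with 6 libraries. Leaving out 1 library gave 2926 to 5319 at 6 h (4639) and 2481 to 4712 from 1 h to 6 h (4003), both lowest without replicate 1 at 6 h. Of the members, 1 was called at 1 h and from 10 min to 1 h with 6 libraries and by DESeq2 (0 in the main fit), and 0 to 1 at 1 h leaving out 1 library. From 6 h to 24 h 2 were called with 6 libraries and 3 to 5 leaving 1 out (5), and from 1 h to 6 h 3 to 8 (6). At 24 h the count ran from 6 to 10. The difference from sham in the log2 ratio of Ptges to Ptgis changed sign leaving out 1 library at 10 min (-0.11 to 0.15), 6 h (-0.66 to 0.037) and 24 h (-0.14 to 0.78). The cause of these shifts was not tested.

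Replicate numbers did not pair the libraries: same-numbered libraries had a median correlation of deviations of 0.04 (-0.26 to 0.25), and 6 of 18 correlated best with their own number. With a replicate block 4540 genes were called at 6 h, and 3 member calls changed: Ptgs2 from 1 h to 6 h (2.08, adjusted p = 0.0555) and Alox5ap from 6 h to 24 h (0.91, adjusted p = 0.0571) were lost and Ptgds from 1 h to 6 h (0.46, adjusted p = 0.0340) was gained. Depth limits Ltc4s, Ptges and sham Ptgs2, which rest on 4 to 51 counts in sham.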
